A study of Mus musculus with 20 samples.

Results

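The RNA-binding domain (RBD) dependence of Tet2 enrichment was measured as the difference between log2(IP/input) of Tet2 and log2(IP/input) of Tet2 without its RBD (Tet2ΔRBD), gene by gene and at each of 4 replicate numbers. IP is the RNA recovered with an anti-Flag antibody (RIP-Seq), and input is the RNA that was not immunoprecipitated. A positive difference means that a transcript was more enriched with full-length Tet2. The genes described are the 8465 of 23284 in the files with a mean input level of at least 5 TPM over the 8 inputs of both lines. TPM corrects a gene's reads for the length of its transcripts and gives all libraries an equal sum. At this minimum, March8 was just inside, with a mean of 5.00 TPM and differences of -0.32, 0.90, -0.25 and -0.50 at numbers 1 to 4. Stra6 was just outside, with 4.996 TPM and -0.38, 0.72, 0.19 and -0.28.

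Both lines are wild-type mouse embryonic stem cells (ESCs) in which Tet2 was tagged at its C-terminus with Flag, HA and Twin-Strep by CRISPR-Cas9n knock-in, the Tet2-KI line with the whole protein and the Tet2-delta-RNA-binding-domain-KI line with a template that leaves out the RBD. Cells of both lines were kept in LIF and serum on gelatin, and each line was picked as a clone, so that RBD and clone cannot be told apart. Each line had 4 IP and 4 input libraries, and Tet1-KI, tagged the same way, had 2 of each. According to the methods the antibody was applied to a cytoplasmic fraction, whereas inputs were total RNA, and the part of this in the ratios was not tested. The study describes its RIP-Seq as done at least in biological duplicates, but the labels do not say which replicates are separate cultures, so that p-values measure the spread between these samples, part of which may be technical.

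Tet proteins are dioxygenases that oxidise 5-methylcytosine, in DNA and also in RNA, to 5-hydroxymethylcytosine. Tet2 lacks the CXXC DNA-binding domain that Tet1 carries, and it reaches its targets through partner proteins and through a C-terminal stretch that binds RNA. RIP-Seq of the protein with and without that stretch asks which transcripts are recovered through it.

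The stretch taken as the deleted one is shown because every comparison below rests on the deletion. A pair of primers listed in the study for a Tet2 vector flanks 162 bases, 54 codons, that are left out in frame. This length equals the 54 amino acids that the methods state. The sequence of the knock-in template was not at hand, so the place of the deletion is inferred from the primers. They lie at chr3:133129884-133130045 of NCBIM37 (mm9), the build of the deposited files, on the minus strand, in the coding part of exon 11 of 11 of transcript Tet2-202, and they encode residues 1799 to 1852 of 1912. The sequence below is that of the transcript strand, with the deleted bases in capitals and 45 retained bases on each side in lower case.

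Tet2 RBD region: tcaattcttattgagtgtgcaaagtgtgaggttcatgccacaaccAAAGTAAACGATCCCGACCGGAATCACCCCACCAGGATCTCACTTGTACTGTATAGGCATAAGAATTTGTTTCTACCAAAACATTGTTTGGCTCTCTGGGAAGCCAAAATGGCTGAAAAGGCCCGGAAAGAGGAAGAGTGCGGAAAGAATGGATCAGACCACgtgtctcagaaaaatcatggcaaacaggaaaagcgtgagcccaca

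A gene total does not show whether these 162 bases were present, so Tet2 itself could not check the labels. Tet2 mRNA stood at 4.14, 5.61, 6.46 and 7.12 TPM in the Tet2 inputs of numbers 1 to 4 and at 6.12, 2.49, 6.13 and 9.21 TPM in the Tet2ΔRBD inputs, and the ranges overlapped. Its difference in log2(IP/input) was 0.17 ± 0.30 (SD, n = 4 numbers), with both signs among the 4 values. The cells carried the markers of ESCs in both lines. All 10 ESC markers listed were above 5 TPM, and their summed input level ran from 14910 to 18210 TPM in Tet2 and from 14650 to 19280 TPM in Tet2ΔRBD. The sum of 7 fibroblast markers was 14.7 to 42.4 TPM in Tet2 and 10.7 to 63.2 TPM in Tet2ΔRBD. That of 7 primitive endoderm markers was 13.4 to 121.6 TPM in Tet2 and 64.7 to 155 TPM in Tet2ΔRBD. Libraries held 21078995 to 37576638 expected counts, and the median gene had 627 in its lowest library of the 16. The replicates were not equally far apart. Libraries 3 and 4 of a group differed by a median of 0.058 to 0.11 on the log2 scale, against 0.35 to 0.75 for every other pair of Tet2 or Tet2ΔRBD libraries. Tet1 replicates 1 and 2 were also close, at 0.10 in IP and in input. Numbers 3 and 4 thus hold less information than separate replicates would. The main fit and the counts over 4 numbers nevertheless treat them as separate.

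The median difference had no common sign over the 4 numbers. The median difference over the 8465 genes was -0.05 at number 1, 0.31 at number 2, -0.08 at number 3 and -0.12 at number 4. Number 2 stood above 0 and the other 3 below it. The mean of the 4 was 0.01 ± 0.20 (SD), and an exact two-sided sign-flip permutation test over the 4 numbers gave p = 1, where the smallest p that 4 numbers allow is 0.125, so that the test could not have passed 0.05. TPM values have a fixed sum, and a change in the total RNA recovered cannot be seen in them. The spread across genes also differed. Its SD was 0.40, 0.69, 0.24 and 0.32 at numbers 1 to 4, so that number 2 was also the widest. Both lines contributed at number 2. The median log2(IP/input) there was 0.35 for Tet2 and -0.01 for Tet2ΔRBD, against 0.12 to 0.21 and 0.19 to 0.25 at the other numbers. Counts of genes by direction and all values of families and their members were therefore taken from differences centred on the median of their number. The 4 differences given for a single gene outside the family comparisons are as computed, unless called centred.

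**Figure D1:**
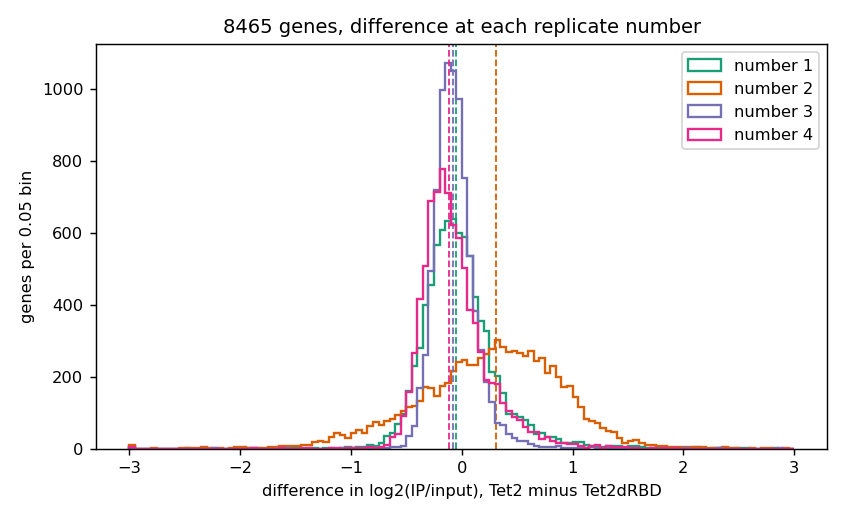
Histogram of the difference in log2(IP/input), Tet2 minus Tet2ΔRBD, over 8465 genes at each replicate number (values beyond 3 on either side are drawn at 3, dashed lines are medians). Number 2 has its median at 0.31 and is wider than the other 3, whose medians are between -0.12 and -0.05.

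Large positive differences at number 1 mostly kept their sign at the other numbers. Of the 164 genes with a centred difference of at least 1 at number 1, 126 were above 0 at number 2, 151 at number 3 and 148 at number 4. Their median centred difference at those numbers was 0.48, 0.40 and 0.49. The 22 genes at -1 or less at number 1 mostly kept their sign at number 2 only. There 8 of them were above 0, with a median of -0.47, but 16 were above 0 at number 3 and 15 at number 4. At number 2 the pattern was another. Of the 302 genes at 1 or more there, 224 were above 0 at number 1 but 112 at number 3 and 112 at number 4. Of the 671 genes at -1 or less, 205 were above 0 at number 1 but 489 at number 3 and 548 at number 4. Across genes, the centred differences correlated at Pearson's r of 0.24 between numbers 1 and 3 and 0.35 between 3 and 4, and at -0.18 between 2 and 3 and -0.32 between 2 and 4. These r values describe 8465 genes that share libraries, and genes are not independent replicates.

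The centred difference was above 0 at all 4 numbers for 660 genes, 7.8% of the 8465, and below 0 at all 4 for 579, 6.84%. Without centring the balance turned, with 486 genes above 0 and 721 below. The larger consistent differences were nearly all on the Tet2 side. A centred difference of at least 0.5 at all 4 numbers, 1.41-fold, was found for 28 genes (0.331%), and one of -0.5 or less for 1 gene (0.0118%), the small nucleolar RNA Snora33, which had 0 to 24 expected counts per library. At least 1 at all 4 numbers, 2-fold, was reached by 10 genes (0.118%), all higher in Tet2. In the fit across all 20 libraries (edgeR's quasi-likelihood F-test, p adjusted by Benjamini-Hochberg), 3 of 13710 genes passed an adjusted p of 0.05, 0.0219%, and all 3 were among those 10: Sec22b, Klf2 and Cyb5r3. No gene passed with a lower ratio in Tet2. The Tet1 libraries add only to the estimate of the spread. With the 16 libraries of Tet2 and Tet2ΔRBD alone no gene passed. The edgeR adjusted p was then 0.053 for Sec22b and Klf2 and 0.13 for Cyb5r3. At an unadjusted p under 0.05, 218 genes were higher and 50 lower among the 8441 of the 8465 genes that were tested. Both directions together were under the share of 0.05 that chance alone would give. When the IP effect of each number was shared between the lines (the replicate block), 0 genes passed, with 259 higher and 60 lower unadjusted. DESeq2 called 24 of the genes described here, all higher in Tet2. The calls also rested on single pairs of libraries. Without number 1 of both lines 2 genes passed, Sec22b and Maea, but not Klf2 or Cyb5r3. Without number 2 there were 17, and without number 3 or number 4 none. Leaving out number 1 of Tet2ΔRBD alone also left none.

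**Figure D2:**
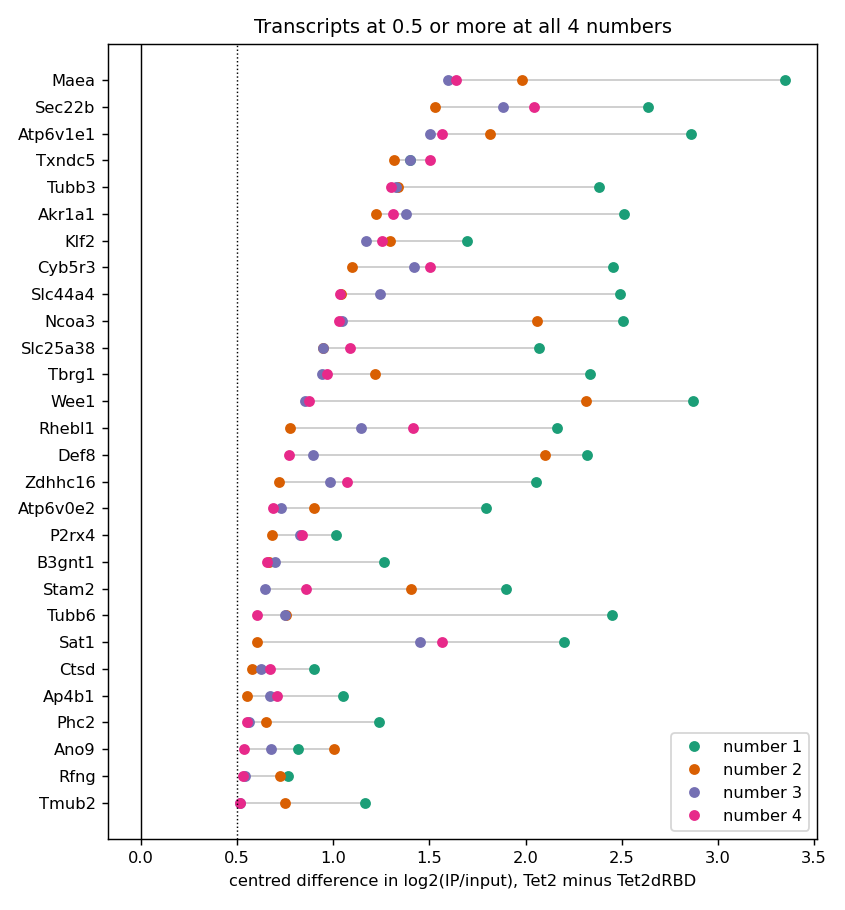
Centred difference in log2(IP/input), Tet2 minus Tet2ΔRBD, at each of the 4 numbers for the 28 genes at 0.5 or more at all 4 (dotted line at 0.5), ordered by the smallest of the 4 values. Number 1 often gives the largest value, and Txndc5 has the 4 values closest together among the 10 genes at 1 or more.

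Sec22b (chr3:97705113-97727199, plus strand), a SNARE protein of membrane fusion between the endoplasmic reticulum (ER) and the Golgi, stood at 337, 177, 147 and 154 TPM in the Tet2 IPs of numbers 1 to 4 and at 52.1, 41.8, 38.5 and 40.6 TPM in the Tet2ΔRBD IPs. Its inputs were alike, 49.2 to 57.5 TPM in Tet2 and 45.7 to 54 TPM in Tet2ΔRBD. The lowest Tet2 IP was thus above the highest of the other 12 libraries of both lines. Its log2(IP/input) was thus higher in Tet2 by 2.58, 1.83, 1.803 and 1.93, and the fitted difference was 2.02 ± 0.22 (SE, edgeR adjusted p = 0.012). With Tet2ΔRBD the transcript was slightly below input at all 4 numbers, between -0.32 and -0.05.

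Klf2 (chr8:74842932-74845555, plus strand), a zinc finger factor of the naive pluripotency network, stood at 502, 558, 289 and 310 TPM in the Tet2 IPs and at 154, 167, 102 and 101 TPM in the Tet2ΔRBD IPs. Its inputs followed the replicate number, with 158, 213, 112 and 119 TPM in Tet2 and 152, 194, 84.1 and 85.1 TPM in Tet2ΔRBD. The 4 Tet2 IPs lay above all other libraries of both lines. The difference was 1.64, 1.601, 1.09 and 1.14, and the fitted value was 1.33 ± 0.14 (SE, edgeR adjusted p = 0.012). In Tet2ΔRBD its log2(IP/input) was between -0.21 and 0.27.

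Cyb5r3 (chr15:82983924-83003022, minus strand), the reductase that passes electrons from NADH to cytochrome b5, stood at 711, 518, 343 and 356 TPM in the Tet2 IPs and at 129, 161, 119.5 and 120.0 TPM in the Tet2ΔRBD IPs. Inputs were 168 to 214 TPM and 149 to 180 TPM. Here too the 4 Tet2 IPs were the highest libraries, and the Tet2ΔRBD IPs were below their inputs at all 4 numbers, by a log2 ratio of -0.47 to -0.13. The difference was 2.40, 1.40, 1.34 and 1.39, with a fitted value of 1.596 ± 0.21 (SE, edgeR adjusted p = 0.047).

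The next genes had differences of like size that did not pass. Maea (chr5:33678214-33715942, plus strand), a subunit of a ubiquitin ligase complex, was at 1107, 487, 268 and 282 TPM in the Tet2 IPs and at 97.2 to 124 TPM in the Tet2ΔRBD IPs. Its differences of 3.29, 2.29, 1.51 and 1.52 were, once centred, the highest by the smallest of the 4, yet their SD was 0.84 and the adjusted p was 0.13 by edgeR. Atp6v1e1 (chr6:120745263-120772703, minus strand), a subunit of the proton pump of lysosomes (V-ATPase), was at 1041, 757, 287 and 299 TPM in the Tet2 IPs and at 146 to 182 TPM in the Tet2ΔRBD IPs. Its differences were 2.81, 2.12, 1.42 and 1.45 (edgeR adjusted p = 0.089). This transcript was also above input in Tet2ΔRBD, by 0.60 to 0.98, so that its enrichment was lower without the RBD and not gone. Txndc5 (chr13:38591948-38620693, minus strand), a folding enzyme of the ER, was at 231, 380, 513 and 534 TPM in the Tet2 IPs and at 87.1, 142, 199 and 191 TPM in the Tet2ΔRBD IPs. Its level followed the number in all 4 groups, while its difference hardly moved, with 1.35, 1.62, 1.32 and 1.39 (edgeR adjusted p = 0.061). An exon of Txndc5 overlaps one of Bmp6 on the other strand in the annotation, as do exons of Ncoa3 with Sulf2, of Zdhhc16 with Mms19 and of Npm3 with Gm15491, and whether counting used strand was not given in the sources used here. Exons of Ctsd and 6330512M04Rik, and of Stam2 and Gm13548, overlap on the same strand, so that reads of these genes may be shared in either case.

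Tubb3 (chr8:125935324-125945915, plus strand), a beta-tubulin best known from neurons, varied most in level. It was at 12.2, 123, 48.1 and 50.9 TPM in the Tet2 inputs and at 9.22, 107, 58.8 and 60.7 TPM in the Tet2ΔRBD inputs. Its IPs were at 62.1, 282, 168 and 174 TPM with Tet2 and at 8.71, 78.0, 86.0 and 90.9 TPM with Tet2ΔRBD, so that the ranges of the IPs overlapped. The differences of 2.33, 1.64, 1.24 and 1.18 nevertheless had the same sign at each number. Akr1a1, an aldehyde reductase, was the most abundant of the 28, with 1774, 980, 1081 and 1136 TPM in the Tet2 IPs against 333, 433, 467 and 481 TPM in the Tet2ΔRBD IPs. The difference was 2.46, 1.53, 1.296 and 1.198. The remaining genes among the 12 highest were the choline transporter-like Slc44a4, the nuclear receptor coactivator Ncoa3, the mitochondrial glycine carrier Slc25a38 and Tbrg1. Slc44a4 held almost the same level in the 4 Tet2 IPs, 28.5 to 29.5 TPM, against 3.06 to 8.90 TPM with Tet2ΔRBD. Ncoa3 was at 232, 257, 62.6 and 63.5 TPM in the Tet2 IPs and at 41.8 to 56.4 TPM in the Tet2ΔRBD IPs. These 6 genes had edgeR adjusted p-values near 0.19 (0.1855 for each), since the adjustment gives neighbouring ranks the same value.

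**Figure D3:**
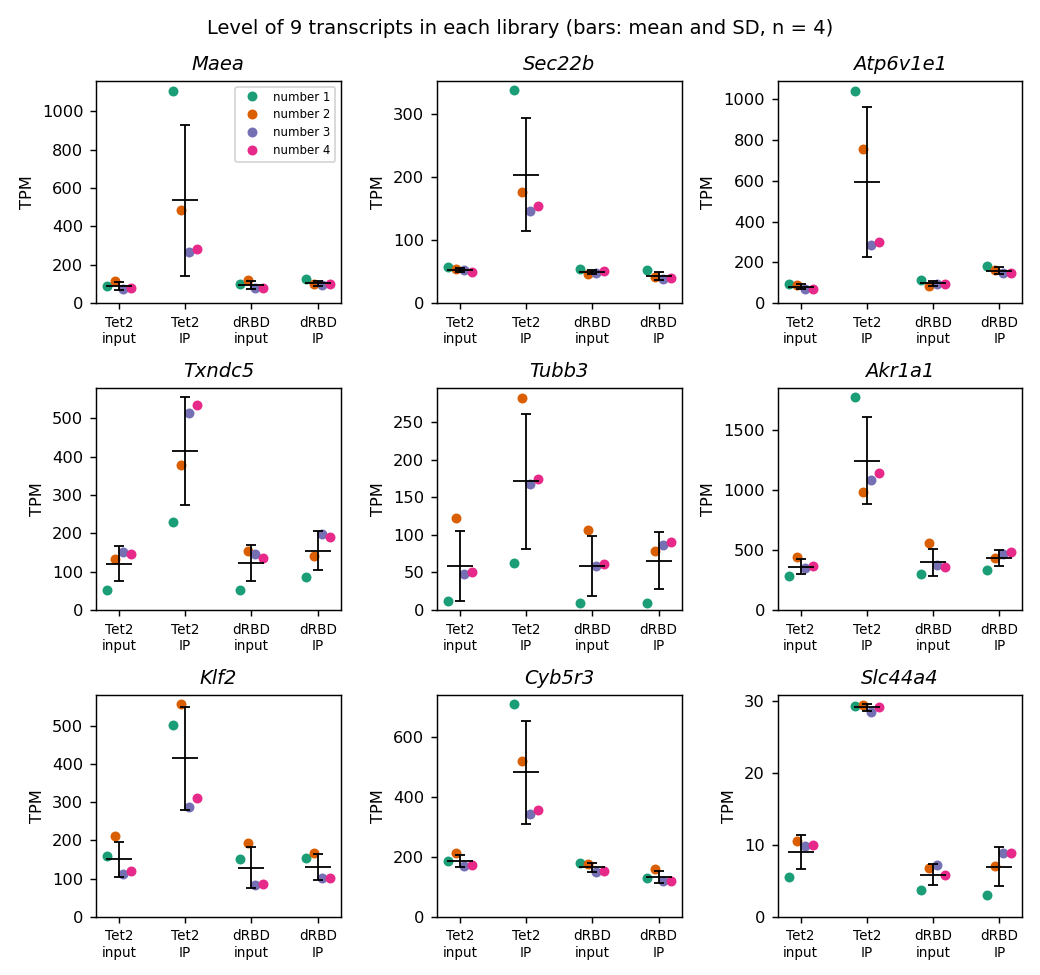
Level in TPM of 9 transcripts in each of the 16 libraries of both lines, coloured by replicate number, with mean and SD (n = 4). The Tet2 IP stands above its input at every number, and for Sec22b, Klf2 and Cyb5r3 all 4 Tet2 IPs are above every other library shown.

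The 28 genes at 0.5 or more at all 4 numbers, chosen by these same values, shared the side from which the difference came. Their median log2(IP/input) was 1.46 with Tet2 and 0.17 with Tet2ΔRBD, where the medians over all 8465 genes were 0.23 and 0.20. All 28 were above input at all 4 numbers with Tet2 and 7 of them with Tet2ΔRBD, against 3969 and 2542 of all 8465. The choice of the 28 favours the first count, and the second was close to the share over all genes. The median difference between the inputs of the lines was -0.05 on the log2 scale, within -0.37 and 0.54, and that between the IPs was 1.27. All Tet2 IPs stood above all Tet2ΔRBD IPs for 18 of the 28, and for 145 of all 8465. The choice of the 28 used these same IPs, so it favours this count and the IP difference too. Tet1 libraries took no part in the choice. In them, 24 of the 28 were above input in both replicates, against 4304 of the 8465, with a median log2(IP/input) of 0.36 against 0.07. The range among the 28 was -0.02 to 0.92, led by Zdhhc16 at 0.92 and Atp6v1e1 at 0.78.

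The roles of the remaining genes among the 28 were varied, and no count of roles was set against all genes. They included Zdhhc16, a palmitoyltransferase, Stam2, an endosomal sorting adaptor, Ap4b1, an adaptor subunit of the trans-Golgi, B3gnt1 and Rfng, glycosyltransferases of the Golgi, and Ctsd, a lysosomal protease. Membrane channels and transporters were P2rx4, an ATP-gated channel, Ano9, Slc44a4 and Slc25a38. Others were the kinase Wee1, the small GTPase Rhebl1, the polyamine enzyme Sat1 and the Polycomb protein Phc2. Ctsd had a difference of 0.85, 0.89, 0.55 and 0.56. Sat1 was at 471, 75.4, 116 and 134 TPM in the Tet2 IPs and at 95.9, 47.6, 57.0 and 54.5 TPM in the Tet2ΔRBD IPs. Wee1 was at 246, 162, 48.5 and 48.3 TPM against 37.8, 22.5, 27.96 and 27.3 TPM. With Wee1, Ncoa3, Def8 and Stam2, numbers 1 and 2 gave differences of 1.71 to 2.81 and numbers 3 and 4 gave 0.57 to 0.97. A coding sequence was at hand for 27 of the 28, and 13 of them, 48.1%, had at least 1 hydrophobic segment (19 residues with a mean Kyte-Doolittle hydropathy of at least 1.6), against 29.9% of the 8216 genes with a reference transcript. Median transcript GC content was 52.6% against 51.6%. Def8 and Tubb3 are neighbours on chromosome 8.

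No gene family moved as a whole to the size of these genes. Of 71 families with at least 4 of their genes measured here, the median centred difference lay between -0.24 and 0.23. The family median was above 0 at all 4 numbers in 4 families and below 0 at all 4 in 6. In 61 families it changed sign between numbers. These sides rest on the centring, since without it 0 of the 4 and 1 of the 6, the RNA polymerase subunits, kept theirs. Of the 28 genes, 16 belonged to none of the families, and the other 12 were spread over 10 families, in most of which they stood alone.

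The SNARE proteins show this most plainly. Among 31 members, Sec22b had a mean centred difference of 2.02 (SD 0.46), and the other 30 ranged from -0.23 for Stx5a to 0.33 for Vti1b, with a median of -0.04. Its closest relatives Sec22a and Sec22c had centred differences of both signs among the 4 numbers. In the V-ATPase, Atp6v1e1 at 1.94 and the membrane subunit Atp6v0e2 at 1.03 stood above the other 15 subunits, which ranged from -0.36 for Atp6v1f to 0.20 for Atp6v1b2. Among tubulins, actins and actin-binding proteins, Tubb3 at 1.59 and Tubb6 at 1.14 stood above 20 others, of which Tmsb15b1 was highest at 0.16. Beta-tubulin transcripts share long stretches of sequence, and RSEM divides reads between them, so the values of single tubulins are uncertain. Tubb6 was at 595, 190, 109 and 106 TPM in the Tet2 IPs and at 123, 125, 94.5 and 102 TPM in the Tet2ΔRBD IPs, so that its difference before centring was 2.40 at number 1 and 0.49 at number 4.

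Klf2, at a mean centred difference of 1.35, was followed among 12 Klf factors by Klf4, a factor of the same network, with 0.43, 0.31, 0.09 and 0.37 (edgeR adjusted p = 1). The other 11 Klf genes had a median of 0.05. The wider group of 26 core pluripotency factors had a per-number median of 0.18, 0.18, 0.00 and -0.01, with 3 members (11.5%, against 7.8% of all genes) above 0 at all 4 numbers, Klf2, Klf4 and Nr0b1, and none below. Cyb5r3 stood alone among 5 genes for cytochrome b5 and its reductases, where the other 4 had a median of -0.17, and Cyb5b was below 0 at all 4 numbers with a mean of -0.16. Txndc5 was the one of 31 ER chaperones and folding enzymes at this size, and the other 30 ended at 0.22 for Hspa5. Phc2 stood at 0.75 among 17 subunits of Polycomb repressive complex 1, whereas its paralogue Phc1, the most abundant of them, had -0.09, 0.40, -0.05 and -0.15. Of 134 solute carriers, 16 (11.9%) were above 0 at all 4 numbers and 5 (3.73%) below, against 7.8% and 6.84% of all genes, and Slc44a4 and Slc25a38 were the 2 at 0.5 or more.

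The 4 families above 0 at all 4 numbers were aminoacyl-tRNA synthetases, DNA damage genes, lysosomal proteins and ubiquitin-specific proteases. After adjustment for length and GC content, only the ubiquitin-specific proteases kept this side. The 34 aminoacyl-tRNA synthetases, which charge tRNAs with amino acids, had medians of 0.15, 0.10, 0.07 and 0.10, and 8 of them (23.5%) were above 0 at all 4 numbers against 7.8% of all genes. Wars had 0.60, 0.52, 0.19 and 0.15, Mars and Qars had means of 0.22 and 0.18, while the most abundant, Kars, was below 0 at all 4 with a mean of -0.14. Of 45 genes of DNA damage signalling and repair, 8 (17.8%) were above 0 at all 4 numbers, with medians of 0.03 to 0.08, among them the helicase Ercc3 with a mean of 0.46 and Brca1 with 0.15. Of 27 lysosomal enzymes and membrane proteins, 6 (22.2%) were above 0 at all 4, with medians of 0.0019, 0.12, 0.07 and 0.03, and the family lost its side with TMM-scaled counts and with a pseudocount of 0.1. Among these were Ctsd at a mean of 0.70 and the mannosidase Man2b1 at 0.32, while Lamp1 was below 0 at all 4 with a mean of -0.15. The medians of 29 ubiquitin-specific proteases were 0.11, 0.41, 0.01 and 0.09. None of the members named here passed the edgeR threshold.

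The 6 families below 0 at all 4 numbers were Rab GTPases, COPI and COPII coats, RNA polymerase subunits, integrated stress response genes, sterol biosynthesis genes and nuclear long noncoding RNAs. After adjustment for length and GC content, only the RNA polymerase subunits and the sterol biosynthesis genes kept this side. The 37 Rab GTPases, which give vesicles their identity, had medians of -0.11, -0.13, -0.07 and -0.04, and 9 of them (24.3%) were below 0 at all 4 numbers against 6.84% of all genes. Rab8a had -0.30, -0.17, -0.15 and -0.14, and Rab5c had a mean of -0.16. Among 43 COPI and COPII coat genes and cargo receptors, Kdelr1 and Tmed9, which recycle or carry cargo between ER and Golgi, had means of -0.23 (SD 0.04) and -0.19 (SD 0.05), below 0 at all 4 numbers. In the integrated stress response, Atf4 had -0.30, -0.36, -0.16 and -0.21. The 23 RNA polymerase subunits had medians of -0.06, -0.43, -0.01 and -0.04. For the 21 sterol genes the per-number medians were between -0.05 and -0.02, while the median of the members' means was 0.01, of the opposite sign, and Dhcr7 stood at 0.94, 0.64, 0.18 and 0.12. All medians of these 10 families were nearer to 0 than the SD across genes at their number, and none of their genes passed the threshold.

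**Figure D4:**
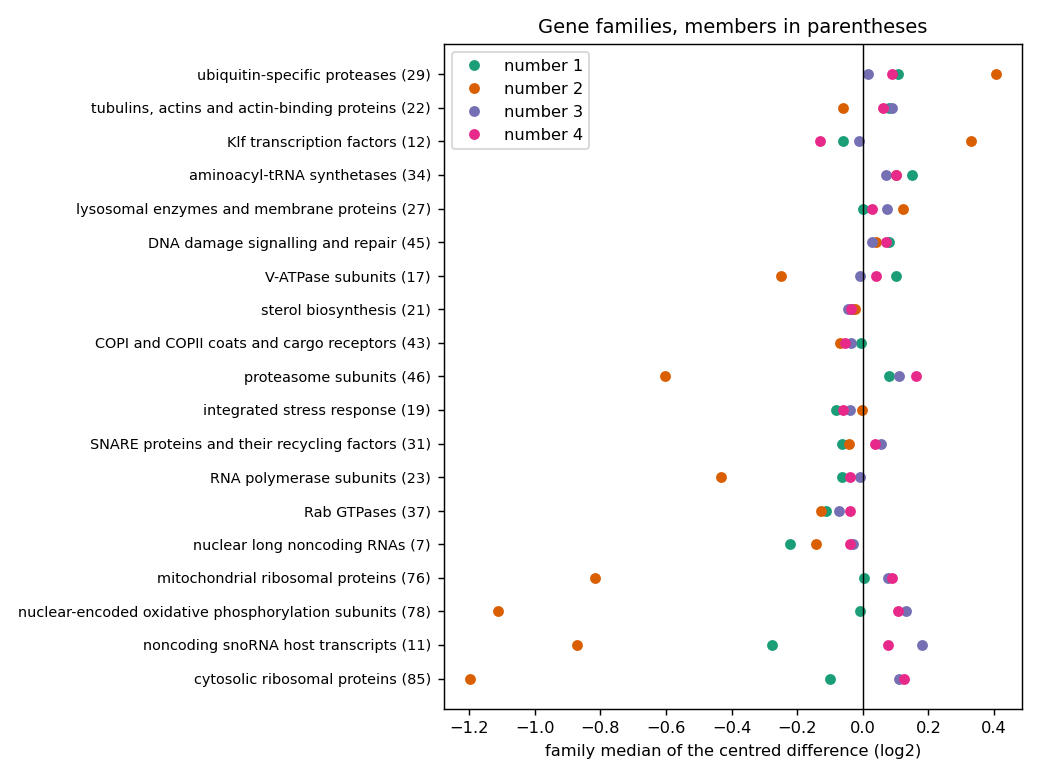
Family medians of the centred difference at each of the 4 numbers for the 10 families on 1 side of 0 at all 4 and for 9 families named in the text, with the number of members in parentheses. Number 2 stands far to the left of the other 3 for ribosomal proteins, respiratory chain subunits, snoRNA hosts and the proteasome.

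The largest family values came from number 2 alone and ran against numbers 3 and 4. The 85 cytosolic ribosomal proteins had medians of -0.10, -1.20, 0.11 and 0.13, and 2 of the 85 were above 0 at number 2 against 71 at number 3. Nuclear-encoded subunits of the respiratory chain and ATP synthase (78 genes) had -0.01, -1.11, 0.13 and 0.11, mitochondrial ribosomal proteins (76) had 0.00, -0.82, 0.08 and 0.09, and proteasome subunits (46) had 0.08, -0.60, 0.11 and 0.16. Both lines contributed, Tet2 more. At number 2 the median log2(IP/input) of cytosolic ribosomal proteins was -0.81 with Tet2 and 0.09 with Tet2ΔRBD, and at the other numbers it was -0.27 to -0.11 with Tet2 and -0.21 to -0.16 with Tet2ΔRBD. Rplp1, the most abundant of them, had -0.35, -1.44, -0.04 and 0.02. These are short transcripts, and over all 8465 genes the centred difference at number 2 moved with transcript length (Spearman's rho = 0.57). The 1693 shortest genes, up to an effective length of 1295 bases, had a median of -0.63 and the 1692 longest, from 3943 bases, 0.41. At number 3 rho was -0.32 and the same medians were 0.08 and -0.07. With GC content rho was 0.27, 0.33, 0.00 and -0.46 at numbers 1 to 4. At number 4 the difference was lower at high GC, with a median of 0.21 in the 1644 genes lowest in GC and -0.11 in the 1643 highest. The C plus U content, of which the rho values were 0.02, 0.22, -0.07 and -0.29, and hydrophobic segments, at -0.03, 0.12, -0.03 and -0.08, had no common sign either. The part of length and GC content in the family values was not tested beyond the adjustment in the closing section. Of the 28 genes at 0.5 or more, 13 lay between 1296 and 1985 bases and 7 between 1986 and 2785, and their median effective length was 1944 bases against 2359 over all.

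**Figure D5:**
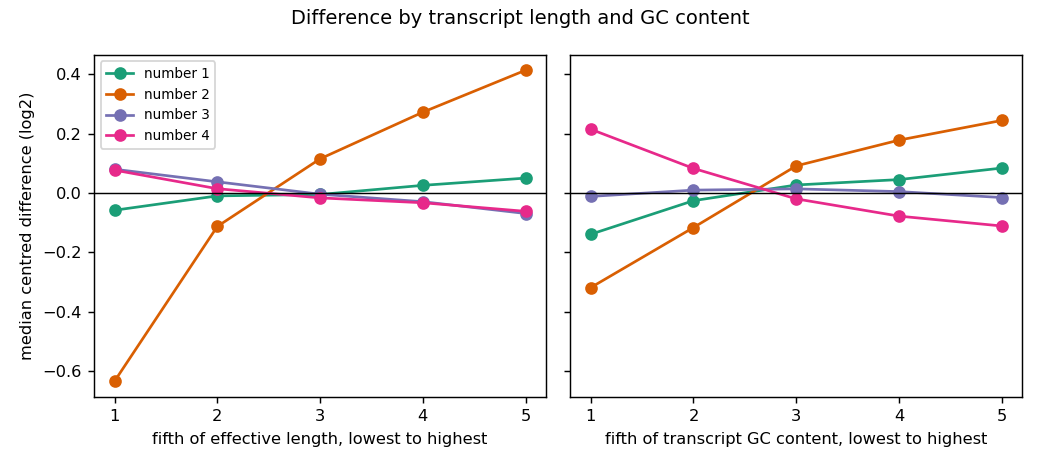
Median centred difference at each number in 5 classes of effective transcript length (left, 8465 genes) and of transcript GC content (right, 8216 genes with a reference transcript). Number 2 climbs from -0.63 to 0.41 with length, and number 4 falls from 0.21 to -0.11 with GC content.

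On the lower side the differences were smaller. By the smallest of the 4 values Snora33, a small nucleolar RNA, came first, but its effective length was 37.3 bases and it had between 0 and 24 expected counts per library, so its TPM values say little, and it was below the count minimum of the fit. Fam98b (chr2:117075475-117097276, plus strand), a component of the tRNA ligase complex, was a protein-coding gene among the 12 lowest, with a steady difference before centring. It stood at 28.3, 32.8, 32.7 and 32.8 TPM in the Tet2 IPs and at 51.4, 35.6, 54.3 and 49.8 TPM in the Tet2ΔRBD IPs, with inputs of 37.9 to 42.3 and 33.5 to 48.5 TPM. All Tet2 IPs were below all Tet2ΔRBD IPs. The difference was -0.49, -0.44, -0.48 and -0.42, and edgeR gave an unadjusted p of 0.0036 and an adjusted p of 0.89. Npm3, a nuclear chaperone, had -0.37, -0.47, -0.32 and -0.52, and Ppp1r1a, an inhibitor of protein phosphatase 1, had -0.44, -0.30, -0.30 and -0.34. The others among the 12 lowest were LOC100504703, Fam25c, Nudt3, Slc25a28, 1300002E11Rik, Mthfd2, Actr2 and 4833442J19Rik. Their centred differences nearest to 0 were between -0.37 and -0.18, and 4 of the 12 had a difference above 0 at number 2 before centring.

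Transcripts that the study names elsewhere did not depend on the RBD in 1 direction. Eed, a core subunit of Polycomb repressive complex 2, was above input by 0.66 to 1.57 with Tet2 and by 0.51 to 1.63 with Tet2ΔRBD, and its difference was -0.02 ± 0.12 (SD, n = 4). Jarid2, an accessory subunit of the same complex, had differences of 0.10, 0.73, -0.25 and -0.20. Smarcc1, a subunit of the BAF remodelling complex, had 0.13, 2.22, -0.28 and -0.10, so that number 2 alone set its mean of 0.49. Sfpq, a paraspeckle protein, was also highest at number 2, with 0.21, 1.28, -0.10 and 0.18. Mbd3, Mdc1 and Dab1 had both signs among the 4, and Paf1 had -0.22, -0.10, 0.01 and -0.12. Tet1 mRNA was above input in both lines at all 4 numbers, and its difference was -0.19 ± 0.26. Tet3, Pibf1 and Cdh4 were below the input minimum, with single inputs of both lines between 0.05 and 2.44 TPM. The edgeR adjusted p was 1 for each of the tested genes in this paragraph. Among 15 writers, readers and erasers of DNA methylation, Tdg, the glycosylase that removes oxidised 5-methylcytosine, was highest, with centred differences of 0.70, 1.10, 0.32 and 0.40 (edgeR adjusted p = 1).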

How the data were processed

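RIP-Seq libraries of Tet2 and Tet2ΔRBD (4 IP and 4 input each) and of Tet1 (2 and 2) were grouped by the sample labels, and each IP was paired with the input of its number. The authors removed low-complexity reads with AfterQC and reads matching rRNA or tRNA with Bowtie2, and then trimmed adapters with Trimmomatic. They mapped the remaining reads to mm9 with RSEM (versions not given in the sources used here). Expected counts per gene, effective lengths and TPM plus 1 were deposited. Deposited FPKM values were not used. Differences were taken from the deposited TPM + 1 column, which lowers the change of weak genes. Expected counts were rounded and tested with edgeR 4.0.16 in R 4.3.3 over all 20 libraries (TMM, each IP blocked with its input, at least 1 CPM in 2 libraries, 7 residual degrees of freedom), with DESeq2 1.42.0 and limma 3.58.1 as alternatives. The SE was taken from the fitted difference and its F value. The fit was also run on simulated data with 200 changed genes. No outcome of that run is given here, so the run does not vouch for the calls made on these libraries. Library totals limit only counting error, and 523 of the genes had under 100 expected counts in some library.

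Same-numbered Tet2 and Tet2ΔRBD ratios deviated together (r = 0.53, 0.25, 0.35 and 0.39 across genes, against -0.36 to 0.44 between different numbers). All 4 were above 0.1, but different numbers also reached 0.44. The differences set the lines against each other at the same number, while the main edgeR fit paired only IP with input. The count with the replicate block is therefore given beside it. Families were lists of symbols, and a family needed 4 measured members. A family of the two-cell-like state had none. Genes named are those past the edgeR threshold, the 12 highest and 12 lowest by the smallest of the 4 values, the leading and most abundant members of families, and transcripts the study names. Sec22a, Sec22c, Vti1b, Atp6v1b2, Hspa5, Tmsb15b1 and the genes at 0.5 or more beyond the 12 highest were named after their values were seen. The members and lists were chosen with earlier results of these data known. Transcript features came from gencode vM1 on NCBIM37, in which 8216 of 8465 genes had a coding transcript.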

Additional observations from a re-analysis of the deposited data

Results flagged for a closer look

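Number 2 stood apart from the other 3 numbers in several values, where chance alone gives about 1 in 20 groups of 4 independent values such a gap. Numbers 3 and 4 were closer than independent replicates, so such gaps are likelier here. More genes and families were looked at than are listed. The median difference over all genes was 0.305 there, against -0.116 to -0.054 at the others. The family medians were -0.433 for RNA polymerase subunits, against -0.062 to -0.008, -1.11 for respiratory chain and ATP synthase subunits, against -0.008 to 0.13, and -0.817 for mitochondrial ribosomal proteins, against 0.002 to 0.089. Among named transcripts the difference at number 2 was 2.22 for Smarcc1, against -0.284 to 0.13, 0.767 for Mdc1, against -0.242 to -0.106, and 0.116 for Actr2, against -0.382 to -0.299. The values of these transcripts are not centred, so they include the shift of the median at number 2. Once centred, Actr2 was below 0 at number 2 as well. Over all genes the difference at number 2 moved with effective length, as given above, and the part of length in these values was not tested.

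Number 1 stood apart for 3 of the genes higher in Tet2. The difference there was 2.40 for Cyb5r3, against 1.34 to 1.40, 2.58 for Sec22b, against 1.803 to 1.93, and 2.00 for Zdhhc16, against 0.90 to 1.02. Their sign and their rank above 0.5 did not rest on number 1.

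The IP effect differed between the lines in the edgeR test of the difference for Sec22b (2.02 higher in Tet2 on the log2 scale), Cyb5r3 (1.6) and Klf2 (1.33), each with the same sign at 4 of 4 numbers. Leaving out number 1 of both lines removed the calls of Klf2 and Cyb5r3, each with an edgeR adjusted p of 0.161. Leaving out number 3 or number 4 of both lines removed all 3 calls. Merging replicates 3 and 4 did so too, with an edgeR adjusted p of 0.36 for Sec22b, 0.43 for Klf2 and 0.47 for Cyb5r3. The replicate block and the fit on the 16 Tet2 and Tet2ΔRBD libraries only also left none.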

How the results depend on the processing

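All calls of the test were higher in Tet2 under every alternative, but their count moved. It was 3 as reported, 24 with DESeq2, 6 without a filter on low counts, and 0 with the 16 Tet2 and Tet2ΔRBD libraries only, with the replicate block, with no replicate block, with limma at either pseudocount and with replicates 3 and 4 merged. Leaving out 1 number or 1 pair of libraries gave 0 to 17 calls. The 12 highest genes kept a fitted difference of at least 0.97 in each of these fits. Of the other named genes, 1300002E11Rik changed sign, to 0.0946 without Tet2 number 1 and to 0.0193 and 0.0523 without Tet2ΔRBD number 3 or 4, within -0.285 to 0.0946 over such fits. Named-gene values kept direction and side of the threshold in 741 cases, lost it in 41 and gained it in 34. The genes above 0 at every number were 660 as reported, 486 without centring, 417 at a mean input of at least 20 TPM and 1022 with replicates 3 and 4 averaged, and 858 to 1665 when 1 number was left out. Those below 0 were 579, 721, 349 and 1035, and 774 to 1543. With 3 values in place of 4 the criterion is easier to meet. The 28 genes at 0.5 or more became 22 to 40 in the other alternatives and 30 to 93 when 1 number was left out (93 without number 2), and 17 of the 28 remained in all 12. The single gene at -0.5 or less became 0 with TMM-scaled counts (CPM), at a mean input of at least 20 TPM and after adjustment for length and GC content, 2 at a mean input of at least 1 TPM, and 2 to 4 when 1 number was left out. The mean of the medians changed from 0.0132 to -0.0105 at a mean input of at least 20 TPM and ran from -0.0841 (without number 2) to 0.0562. Families above 0 at every number were 4 as reported, 9 with replicates 3 and 4 averaged, 10 after the adjustment for length and GC content, which was chosen after seeing the data, and 6 to 11 when 1 number was left out. Those below 0 were 6, 2 at a mean input of at least 20 TPM, and 6 to 16. RNA polymerase subunits were the only family that kept its side in all of these. After the adjustment 1 of the 4 did, the ubiquitin-specific proteases, and 2 of the 6, RNA polymerase subunits and sterol biosynthesis genes. Without centring 0 of the 4 and 1 of the 6 did. The cause of these changes was not tested. Genes with few counts and the clone behind each line limit what 4 numbers can show.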
